A study of Mus musculus with 6 samples.

Results

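The cyclin-dependent kinase (CDK) inhibitor genes of the mouse are Cdkn1a, Cdkn1b, Cdkn1c, Cdkn2a, Cdkn2b, Cdkn2c and Cdkn2d. All array probes whose transcript accession belongs to one of these 7 genes were taken, out of 20284 genes named on the array, which gave 10 of the 26762 probes with 1 gene symbol and of 55681 non-control probes in all. RNA was taken from mouse spermatogonial stem cells in culture, the cells that renew the male germline. They had been passaged from dissociated testis cells onto mouse embryonic fibroblast feeders, so the RNA can hold feeder transcripts. Captopril, an angiotensin-converting enzyme inhibitor used against high blood pressure, was given at a labelled concentration of 0.01 M for 24 h to 3 cultures, and sterile water, labelled with the same 0.01 M, to 3 control cultures. The labels name no strain, genotype or age for either group, and call the cultures independent. In both groups they carry the replicate numbers 2, 3 and 4. The sources used here do not give whether they came from separate animals, so the spread between them may be technical.

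CDK inhibitors bind the kinases that drive a cell through the division cycle and hold them inactive. The Cip/Kip proteins, encoded by Cdkn1a, Cdkn1b and Cdkn1c, act on cyclin-bound kinases of several phases, whereas the INK4 proteins, encoded by the Cdkn2 genes, bind Cdk4 and Cdk6 and keep them from their D-type cyclins. Cdkn2a also encodes Arf, an unrelated protein read from another first exon, which shields p53 by binding Mdm2. In the mouse testis Cdkn2c and Cdkn2d act together in spermatogenesis, and males that lack both are infertile. The series sets captopril against water, and the question here is whether transcripts of these brakes on division differ between the groups.

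All 10 probes were well above background on all 6 arrays and none was saturated. Levels below are log2 of the processed signal relative to the 75th percentile of the same array, so that 0 is that percentile. Each probe binds its target with its own strength, so the levels of different probes are not ranked against each other.

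The array of water replicate 3 differed most from the rest. It correlated with them at 0.878 to 0.893 over 32380 probes, against 0.970 to 0.991 among the other 5 arrays, and 52.2% of its spots were well above background, against 57.3% to 60.5% on those. The median SD per probe was 0.213 over the captopril arrays, 0.466 over the water arrays and 0.117 over water replicates 2 and 4. Among the CDK inhibitor probes, water replicate 3 was the highest array for 6 and the lowest for 3. Over all probes it was the highest or the lowest array for 78.0%. Fold changes and list medians are therefore given with and without this array. All arrays lay on 1 slide, slide row 2 holding water replicate 4 and all captopril arrays and slide row 1 the remaining water arrays. Of the cell type markers, all 12 germ cell genes and all 10 fibroblast genes were measured. The Sertoli cell genes Sox9, Wt1, Clu and Rhox5 and the Leydig cell gene Star were well above background on all 6 arrays. The Sertoli cell gene Gata4 was so on 1 array. The Sertoli cell gene Amh and the Leydig cell genes Cyp11a1, Cyp17a1 and Hsd3b1 were not well above background on any array. Insl3, the last listed Leydig cell gene, had no named probe.

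No CDK inhibitor probe passed the test in either comparison. Over 6 arrays, limma called 0 of the 10 probes at an adjusted p under 0.05, as it did 0 of all 32426 probes tested (0%), with adjusted p of 0.565 to 0.993 for the 10. At an unadjusted p under 0.05 there were 0 of the 10, against 8.84% of all probes (4.96% higher and 3.88% lower). In 4 of the 10 the groups did not overlap, 2 higher and 2 lower with captopril, against 23.9% of all probes (14.5% higher and 9.33% lower). The median log2 fold change of the 10 (captopril minus water) was 0.09, with 5 positive and 5 negative values, beside 0.07 over all probes. These are bulk RNA samples, in which fewer cells of a type and less RNA per cell cannot be told apart.

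Without water replicate 3, limma called 0 of the 10 probes and 91 of the 32426 (0.281%). The adjusted p of the 10 ran between 0.110 and 0.901. At an unadjusted p under 0.05 there was 1 of the 10, a Cdkn2b probe, against 19.9% of all probes (13.8% higher and 6.08% lower). The groups did not overlap in 5 of the 10, against 43.7% of all probes, with 3 higher (29.7%) and 2 lower (14%). The median was 0.06, beside 0.105 over all probes. These shares lie close to the background, and nothing particular to the 10 probes is read from them.

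**Figure D1:**
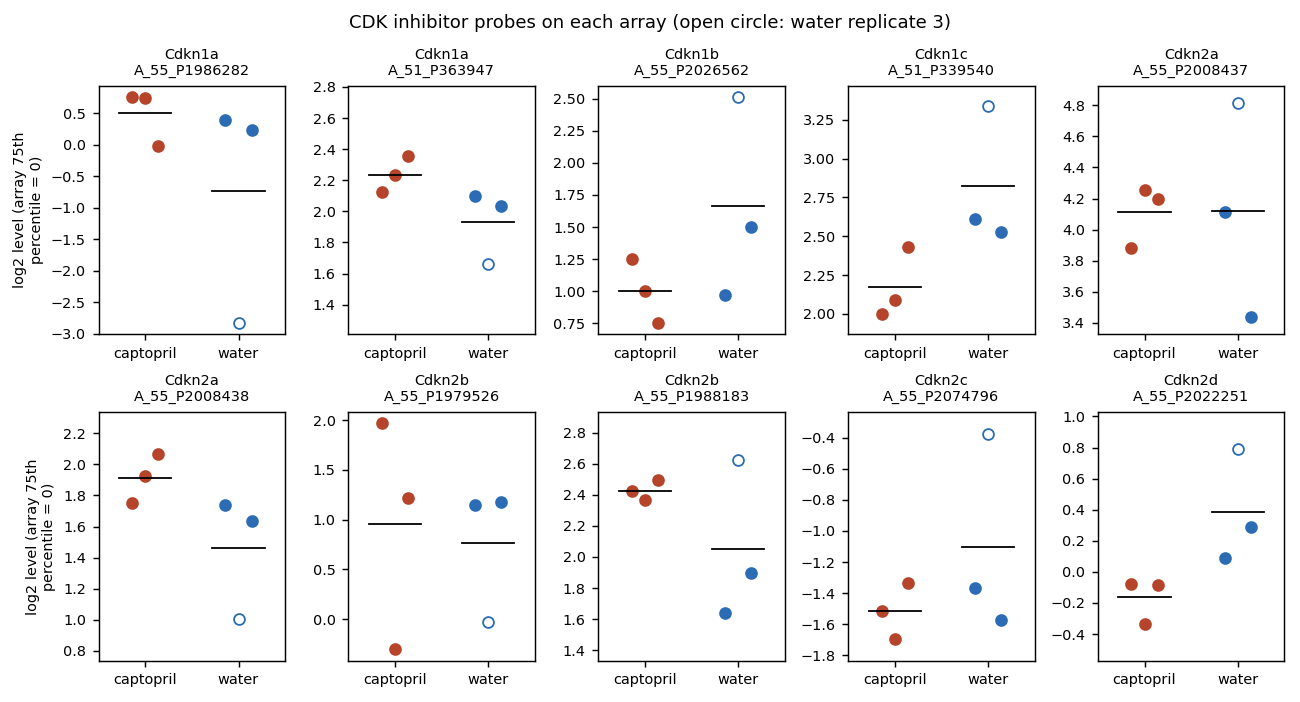
The log2 level of each CDK inhibitor probe (array 75th percentile = 0) on the captopril arrays (red) and the water arrays (blue), with a line at each group's mean over 3 arrays and an open circle for water replicate 3. The groups do not overlap for Cdkn1a probe A_51_P363947 and Cdkn2a probe A_55_P2008438, which are higher with captopril, nor for Cdkn1c and Cdkn2d, which are lower.

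The promoter windows of 4 transcript starts are shown. The 2 of Cdkn1a were taken because its probes are assigned to different transcripts. Which window goes with which transcript is not given here. Without probe sequences it is not known whether each probe reads 1 transcript only. Those of Cdkn2d and Cdkn2b were taken because the groups were apart in the reported values. For Cdkn2b this held for probe A_55_P1988183, only without water replicate 3, and not for A_55_P1979526. With quantile normalization the groups of A_55_P1988183 were apart over 6 arrays too. Groups were apart for 23.9% of all probes over 6 arrays and for 43.7% without water replicate 3. The choice therefore does not mark these genes as different from other probes. The groups were also apart for Cdkn1c, which had no window, and for 1 Cdkn2a probe, whose windows are not shown. Each window shown is the 250 bases before a start in RefSeq, build GRCm38.p6, read 5′ to 3′ on the strand of the gene. Capitals mark p53 half-sites in the first window and GC boxes (GGGCGG on either strand) in the second and the last, and the Cdkn2b window held none of the motifs searched. Cdkn1a has 2 starts in the table, 2790 bases apart, at chr17:29090729-29090978 for the upstream window and chr17:29093519-29093768 for the downstream one, both on the plus strand. The window of Cdkn2b is chr4:89311033-89311282 and that of Cdkn2d chr9:21291210-21291459, both on the minus strand.
Cdkn1a, upstream start: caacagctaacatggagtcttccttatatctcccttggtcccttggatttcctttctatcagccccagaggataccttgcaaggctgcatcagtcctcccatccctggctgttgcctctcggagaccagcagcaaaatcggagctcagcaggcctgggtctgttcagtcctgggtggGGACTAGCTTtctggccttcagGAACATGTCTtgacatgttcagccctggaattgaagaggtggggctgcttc
Cdkn1a, downstream start: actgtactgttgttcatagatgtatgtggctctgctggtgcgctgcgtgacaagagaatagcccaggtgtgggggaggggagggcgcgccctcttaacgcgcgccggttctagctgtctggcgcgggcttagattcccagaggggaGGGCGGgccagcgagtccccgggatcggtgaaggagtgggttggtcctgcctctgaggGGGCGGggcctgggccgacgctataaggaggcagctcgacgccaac
Cdkn2b: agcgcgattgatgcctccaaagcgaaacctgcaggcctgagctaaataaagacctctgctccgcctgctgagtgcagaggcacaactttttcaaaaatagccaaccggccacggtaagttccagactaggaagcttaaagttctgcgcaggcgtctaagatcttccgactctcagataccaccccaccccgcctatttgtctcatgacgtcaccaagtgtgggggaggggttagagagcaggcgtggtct
Cdkn2d: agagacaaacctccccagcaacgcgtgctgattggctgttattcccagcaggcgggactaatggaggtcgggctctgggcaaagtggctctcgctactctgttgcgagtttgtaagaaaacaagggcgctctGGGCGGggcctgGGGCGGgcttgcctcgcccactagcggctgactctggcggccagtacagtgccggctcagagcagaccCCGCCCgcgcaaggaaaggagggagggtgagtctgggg

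The table gave 9 such windows for 6 of the 7 genes. A GC box, the motif read by Sp1 and related factors, was found on either strand in 5 of the 9, and in 32.7% of the 32851 windows of all genes. The upstream Cdkn1a window held 2 matches to the p53 half-site consensus and the Cdkn2d window 1, and 7.1% of all windows held at least 1. p53 is the best known activator of Cdkn1a. Neither TATAAA nor CACGTG was found in any of the 9 windows, on either strand. These letters occur in 12.4% and 6.0% of all windows. The upstream Cdkn2a window had 78.4% G and C, against 60.0% in that of a start 12427 bases downstream and a median of 52.4% over all windows. The arrays do not measure binding at any of these windows.

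Cdkn1a encodes p21, the inhibitor that p53 induces after DNA damage. Its probe A_51_P363947 (transcript NM_007669) stood at 2.12, 2.23 and 2.36 on captopril replicates 2, 3 and 4, against 2.10, 1.66 and 2.03 on the water arrays of the same numbers. All captopril arrays were thus above all water arrays, by a narrow margin between captopril replicate 2 and water replicate 2. The log2 fold change was 0.31 (SE 0.23, limma adjusted p = 0.601), and 0.17 (SE 0.16, adjusted p = 0.547) without water replicate 3.

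This probe is printed as 10 spots on each array, which shows how finely a single array reads it. The SD over the 9 or 10 spots used per array ran between 0.06 on captopril replicate 4 and 0.14 on captopril replicate 3. On water arrays it ran between 0.08 and 0.10. Single spots of captopril replicate 2 ranged between 2.03 and 2.27, and those of water replicate 2 between 1.96 and 2.22, so the spots of these neighbouring arrays overlapped. Every spot of water replicate 3, the highest at 1.78, lay below every spot used on the captopril arrays. The array means of the groups stayed apart in both comparisons under quantile normalization and normexp background correction. With scaling by the array median the groups overlapped and the value was −0.010. That scaling moved the median of all probes to −0.25.

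**Figure D2:**
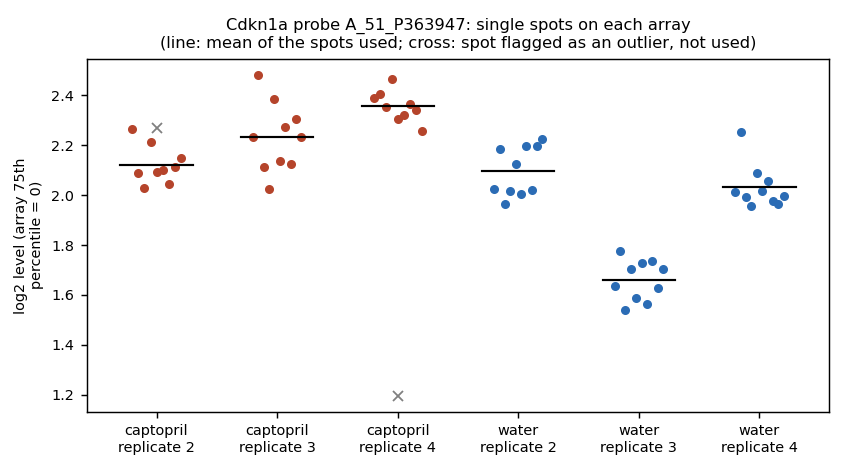
Single spots of Cdkn1a probe A_51_P363947 on each array, as log2 level (array 75th percentile = 0), captopril in red and water in blue, with a line at the mean of the spots used and a cross for a spot flagged as an outlier and left out. Spots spread by an SD of 0.06 to 0.14 within an array, and those of water replicate 3 lie below those used on all captopril arrays.

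The other Cdkn1a probe, A_55_P1986282, is assigned to transcript NM_001111099. It stood at 0.76, 0.75 and −0.01 on the captopril arrays, and at 0.40, −2.83 and 0.24 on the water arrays, in replicate order. The groups overlapped, and water replicate 3 lay 3.15 below the mean of the other water arrays. The log2 fold change of 1.23 (SE 0.86, adjusted p = 0.598) over 6 arrays carries that array, and without it the value was 0.18 (SE 0.26, adjusted p = 0.721).

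Cdkn1b encodes p27, which holds cells in G1 and is controlled largely at the level of its protein. Its probe stood at 1.25, 1.00 and 0.75 on the captopril arrays, against 0.97, 2.51 and 1.5 on the water arrays. The groups overlapped, since water replicate 2 lay below captopril replicates 2 and 3. Captopril minus water was −0.66 (SE 0.42, adjusted p = 0.590) over 6 arrays and −0.23 (SE 0.23, adjusted p = 0.577) without water replicate 3.

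Cdkn1c encodes p57, and is an imprinted gene expressed from the maternal copy. Its level was 2.00, 2.09 and 2.43 on the captopril arrays, and 2.61, 3.34 and 2.52 on the water arrays. The groups did not overlap, also when water replicate 3 was left out, and captopril replicate 4 lay 0.10 below water replicate 4. On the log2 scale captopril minus water was −0.65 (SE 0.30, adjusted p = 0.565), the smallest adjusted p of the 10 probes over 6 arrays. Without water replicate 3 it was −0.39 (SE 0.18, adjusted p = 0.284), with a 95% confidence interval of −0.83 to 0.04. Set against water replicate 4 alone, the water array of the same slide row, the captopril mean was lower by 0.35, a value with no spread between water arrays. The groups stayed apart under quantile normalization and normexp background correction as well. They did so under scaling by the array median too, but that scaling lowers captopril relative to water and could not make them overlap.

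Cdkn2a is read by 2 probes, both assigned to transcript NM_009877, which encodes Arf. Probe sequences were not available here, so whether these probes also read the INK4 transcript of this gene is not known. Probe A_55_P2008437 stood at 3.89, 4.26 and 4.20 on the captopril arrays, and at 4.12, 4.81 and 3.44 on the water arrays. The groups overlapped, with water replicate 3 above and water replicate 4 below all captopril arrays. The log2 fold change was −0.01 (SE 0.37, adjusted p = 0.993), and 0.33 (SE 0.24, adjusted p = 0.456) without water replicate 3, so its sign turned with that array. Probe A_55_P2008438 stood at 1.75, 1.92 and 2.07 on the captopril arrays, and at 1.74, 1.01 and 1.64 on the water arrays. The groups did not overlap, with captopril replicate 2 and water replicate 2 almost level. Its log2 fold change was 0.45 (SE 0.27, adjusted p = 0.583), and 0.23 (SE 0.17, adjusted p = 0.461) without water replicate 3. In both comparisons the groups overlapped with scaling by the array median and with normexp background correction.

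Cdkn2b encodes p15, the INK4 protein that TGF-beta induces in epithelial cells. It had the smallest adjusted p of the 10 probes once water replicate 3 was left out. Its probe A_55_P1988183 stood at 2.42, 2.36 and 2.49 on the captopril arrays, an SD of 0.06, against 1.64, 2.62 and 1.90 on the water arrays. The captopril arrays thus lay above water replicates 2 and 4 and below water replicate 3. Its log2 fold change was 0.37 (SE 0.30, adjusted p = 0.614) over 6 arrays. Without water replicate 3 it was 0.66 (SE 0.16, 95% confidence interval 0.28 to 1.04, unadjusted p = 0.0048 and adjusted p = 0.110 by limma), a 1.58-fold difference.

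The second Cdkn2b probe, A_55_P1979526, carries the same accession NM_007670 and gave another picture. It stood at 1.97, −0.31 and 1.21 on the captopril arrays, and at 1.14, −0.03 and 1.18 on the water arrays. Replicate 3 was the lowest array in each group, and the captopril arrays spanned all water arrays. Over 6 arrays its log2 fold change was 0.19 (SE 0.63, adjusted p = 0.915), and −0.20 (SE 0.59, adjusted p = 0.863) without water replicate 3. The Cdkn2b probes thus differed in sign without that array.

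**Figure D3:**
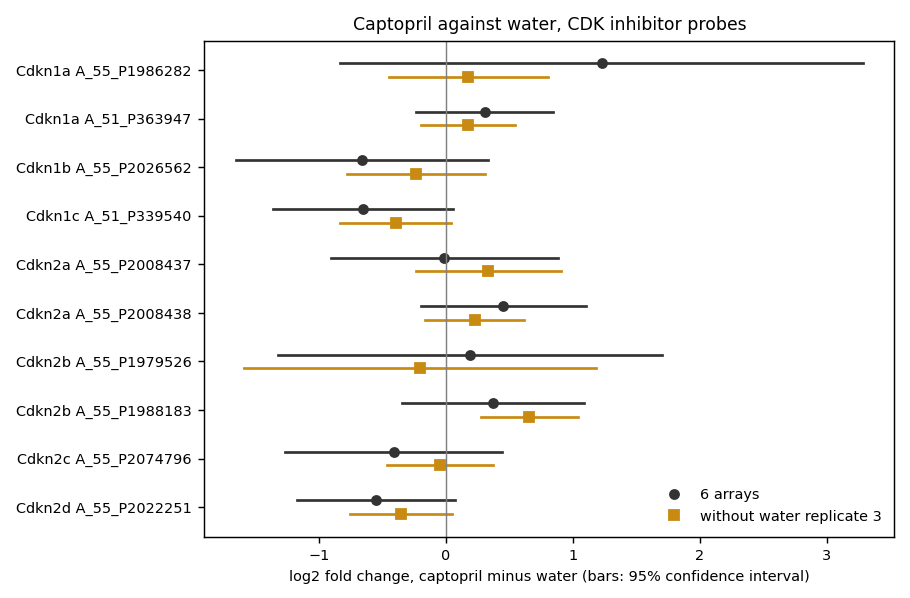
Log2 fold change (captopril minus water) of each CDK inhibitor probe with its 95% confidence interval, over 6 arrays (black circles) and without water replicate 3 (orange squares). Every interval over 6 arrays includes 0, and without water replicate 3 the interval of Cdkn2b probe A_55_P1988183, 0.28 to 1.04, is the one that does not.

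Cdkn2c encodes p18 and Cdkn2d encodes the INK4 protein p19. Cdkn2c stood at −1.52, −1.70 and −1.33 on captopril replicates 2, 3 and 4, against −1.37, −0.37 and −1.57 on the water arrays. Apart from water replicate 3 the groups were mixed. Its log2 fold change was −0.41 (SE 0.36, adjusted p = 0.633), and −0.05 (SE 0.18, adjusted p = 0.901) without that array. The interval of the second value was −0.47 to 0.37.

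Cdkn2d was lower with captopril on every array, at −0.08, −0.33 and −0.08, against 0.09, 0.79 and 0.29 on the water arrays. The highest captopril array lay 0.17 below the lowest water array, and the groups stayed apart without water replicate 3. Its log2 fold change was −0.55 (SE 0.26, adjusted p = 0.567) over 6 arrays and −0.35 (SE 0.17, adjusted p = 0.294, 95% confidence interval −0.75 to 0.05) without that array. Against water replicate 4 alone the captopril mean was lower by 0.45. The groups also stayed apart under quantile normalization and normexp background correction. Scaling by the array median lowered every captopril array relative to every water array, so it could not bring these groups together.

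The genes whose pattern over the 6 arrays lay closest to that of a CDK inhibitor were found among 12927 other genes measured on all 6 arrays, predicted and Rik genes left out, by the root mean square difference of log2 levels after each gene was centred on its own mean. For Cdkn1a they were Lypla2, Lrrc39 and Zfp551, with differences of 0.045 to 0.049. For Cdkn1b they were Med30, Kpna4 and the cadherin gene Cdh1 (0.059 to 0.070), and for Cdkn1c Necab2, Rad51ap1 and Mast1 (0.032 to 0.052). Among the Cdkn2 genes, Cdkn2b lay closest to Maoa, Cyren and P2ry2 (0.049 to 0.054). Cdkn2c lay closest to Zfp329, Hrh1 and Spn (0.045 to 0.068), and Cdkn2d to Snx5, Mynn and Tfg (0.048 to 0.056). No CDK inhibitor was among the closest of another. The nearest pair among them was Cdkn1c and Cdkn2d, at 0.17, where Cdkn2d ranked 496 among the genes closest to Cdkn1c and Cdkn1c ranked 533 among those closest to Cdkn2d. Patterns over 6 arrays follow water replicate 3 strongly, since it is the extreme array of most probes.

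Genes that act with or on the CDK inhibitors were described by lists, with 1 probe per gene. None of their members passed limma's test over all probes in either direction, in either comparison. The list of cyclins and kinases of G1 and S phase also holds Cdk1, which acts in mitosis. Of the 9 measured genes on this list, 5 had negative values over 6 arrays, with a median of −0.07. Without water replicate 3 there were 7, with a median of −0.19. Ccna2, the cyclin of S phase and G2, stood at 1.41, 1.5 and 1.16 on the captopril arrays and at 2.46, 2.16 and 2.31 on the water arrays. Its groups did not overlap, and its log2 fold change was −0.95 (SE 0.22, adjusted p = 0.553), or −1.03 (SE 0.17, adjusted p = 0.066) without water replicate 3. Cdk1, the mitotic kinase, stood at −0.41 (SE 0.23), and at −0.30 (SE 0.18) without that array. Of the kinases that INK4 proteins bind, Cdk4 stood at 0.11 both with that array (SE 0.22) and without it (SE 0.18), and Cdk6 was not well above background on any array.

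All 7 pocket protein and E2F genes, which act below the kinases, had negative values, with medians of −0.62 over 6 arrays and −0.22 without water replicate 3. Over all probes 44.2% were negative over 6 arrays and 38.0% without that array. E2f2, an activating E2F, stood at −0.92 (SE 0.36, adjusted p = 0.563) and the pocket protein gene Rbl1 at −0.95 (SE 0.40, adjusted p = 0.563). Their groups did not overlap with or without water replicate 3. With that array left out they stood at −0.60 and −0.50.

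The Polycomb genes that are known to repress the Ink4 and Arf locus had a median of −0.41, with 9 of 11 negative, and of −0.29, with 7 of 11 negative, without water replicate 3. Suz12, a subunit of Polycomb repressive complex 2, stood at 1.70, 1.84 and 1.33 on the captopril arrays, against 2.26, 2.61 and 2.14 on the water arrays. The groups did not overlap, and the log2 fold change was −0.71 (SE 0.25, adjusted p = 0.563), or −0.57 (SE 0.20) without water replicate 3. The ubiquitin ligase gene Rnf2 stood at −0.86 (SE 0.33), and at −0.57 (SE 0.20) without that array.

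The p53 regulators and targets other than Cdkn1a had a median of −0.10 with 5 of 12 positive, and of 0.09 with 9 of 12 positive without water replicate 3, close to the 0.105 of all probes. Trp53inp1 stood at −0.48 (SE 0.34), and at −0.17 (SE 0.21) without that array. Sesn2, a stress gene, stood at 0.22 (SE 0.24), and at 0.15 (SE 0.20) without it. Genes of the ubiquitin ligases that degrade Cip/Kip proteins had a median of −0.13, with 7 of 10 negative, over 6 arrays. Skp2, also on this list, had no named probe and is not among the 10. Without water replicate 3 the median was −0.0025, with 5 of 10 negative. Of these Dtl, the receptor subunit that targets p21 in S phase, stood at −0.77 (SE 0.32, adjusted p = 0.563), and at −0.44 (SE 0.16) without that array. Rnf123, a ligase of p27, stood at 0.34 (SE 0.20, adjusted p = 0.583), and at 0.395 (SE 0.15) without it. Transcription factors that act on the CDK inhibitor genes had a median of 0.05, with 7 of 13 positive, and of 0.04, with 8 of 13 positive, without water replicate 3. Foxo1, which activates Cdkn1b, stood at −0.53 (SE 0.41), but with that array left out at −0.07 (SE 0.17). Klf4, which acts on Cdkn1a, stood at −0.23 (SE 0.20), and at −0.18 (SE 0.15) without it. Without water replicate 3, 3 of the 13 were higher at an unadjusted p under 0.05 by limma and 0 lower. The shares of all probes were 13.8% and 6.08%. Foxo1 and Klf4 are not among the 3.

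**Figure D4:**
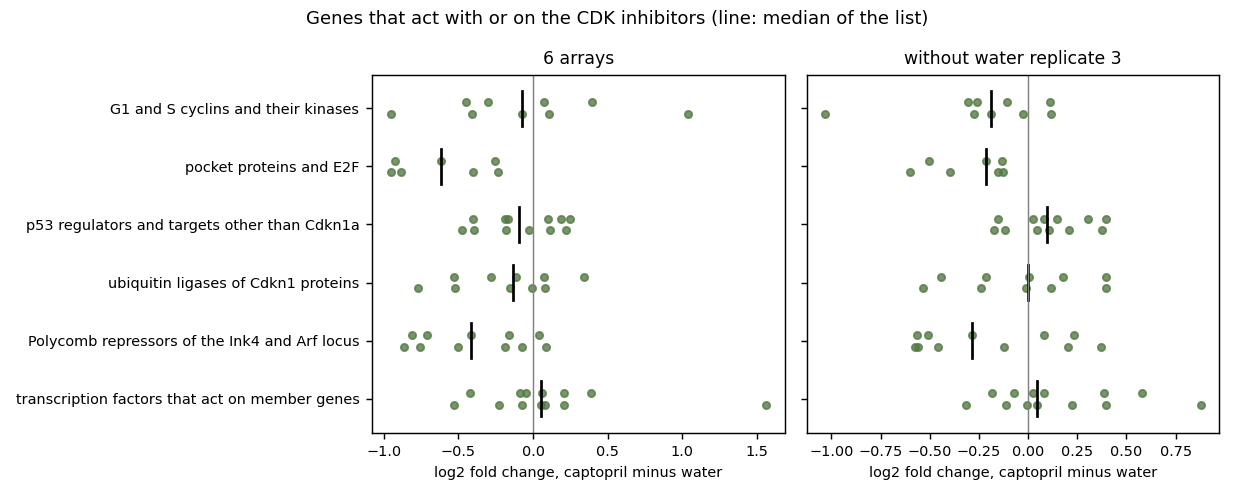
Log2 fold change (captopril minus water) of each measured gene in 6 lists of genes that act with or on the CDK inhibitors, over 6 arrays (left) and without water replicate 3 (right), with a line at each list's median. The 7 pocket protein and E2F genes all lie below 0 in both panels, and the p53 list changes side, at −0.10 with all arrays and 0.09 without water replicate 3.

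Feeder fibroblasts can express CDK inhibitors too, so the marker levels stand beside these results. The summed linear level of the 10 fibroblast markers, in multiples of the 75th percentile, was 127 to 162 on the captopril arrays and 150 to 262 on the water arrays, where the 262 was water replicate 3. Their median log2 fold change was −0.49 with 9 of 10 negative, and −0.22 with 8 of 10 negative without that array. At an unadjusted p under 0.05 by limma, 4 of the 10 were lower and 0 higher in both comparisons. The shares of all probes that were lower were 3.88% over 6 arrays and 6.08% without that array. The collagen gene Col3a1 stood at −0.87 (SE 0.26, adjusted p = 0.557) and the receptor gene Pdgfrb at −1.08 (SE 0.37, adjusted p = 0.563), and without that array at −0.66 and −0.72. The 12 germ cell markers summed to 65.3 to 86.1 on the captopril arrays and 61.7 to 107 on the water arrays, where the 107 was water replicate 3. Their median was −0.03, and 0.14 without that array. Among them the stem cell factor gene Sall4 stood at 0.89 (SE 0.38) and Nanos2 at −0.51 (SE 0.27), and without that array at 0.505 and −0.33. The 4 measured Sertoli cell markers had a median of −0.26 with 3 of 4 negative, and of 0.031 with 2 of 4 negative without that array. Wt1 stood at −0.60 (SE 0.37) and Clu at −0.28 (SE 0.30), and without that array at −0.21 and −0.021. The Leydig cell gene Star, the single one measured of its list, stood at −0.61 (SE 0.36), and at −0.24 (SE 0.19) without that array. The part of these cell types in the CDK inhibitor values was not tested.

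**Figure D5:**
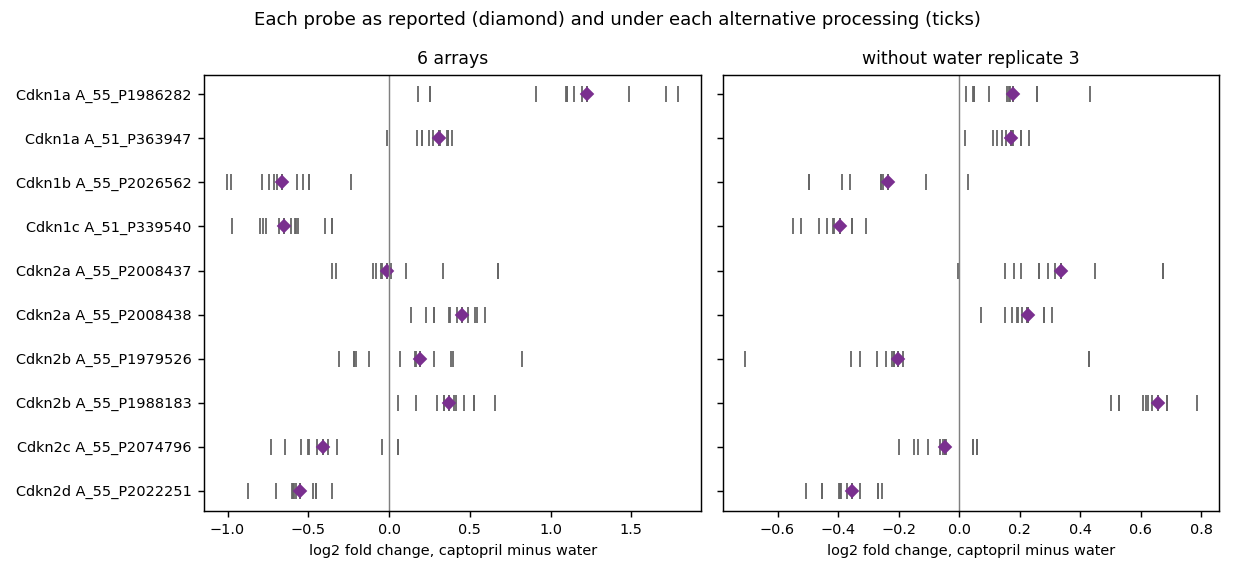
Log2 fold change (captopril minus water) of each CDK inhibitor probe as reported (diamond) and under each alternative processing, including arrays left out (ticks), over 6 arrays (left) and without water replicate 3 (right). Cdkn1b, Cdkn1c and Cdkn2d stay below 0 on the left, and on the right Cdkn1c and Cdkn2d do so while Cdkn2b probe A_55_P1988183 stays between 0.50 and 0.79.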

How the data were processed

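The deposited scanner files hold spot intensity values. Their software was Feature Extraction 11.5.1.1, per the file headers, or 10.7, per the submitters' processing notes, with background subtracted within each array. The authors deposited a table of log2 values as well. Each of its columns differed from log2 of the processed signal by a constant (100% of values within 0.01) that puts 0 near the 75th percentile. The steps that made it are not given in the sources used here. Its column medians were −3.73, −3.64 and −3.63 for captopril replicates 2, 3 and 4, and −3.81, −4.25 and −3.79 for water replicates 2, 3 and 4.

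Each array's processed signal was divided by its 75th percentile over non-control spots (1875 to 3424) and put on the log2 scale. Outlier-flagged spots were left out and spots of a probe averaged. Probes well above background on at least 3 arrays (32426) went into a two-sided limma test (version 3.58.1, R 4.3.3) with Benjamini-Hochberg adjustment over all probes. With 3 against 3 arrays the number of arrays limits the precision. Accessions were matched to RefSeq symbols of GRCm38.p6, which named 98.1% of those of curated messenger RNAs. The array design used mm9, so no probe coordinates are given. Lists use the brightest probe of each gene. The code was tested on simulated data. Plots used Python 3.11.15 and matplotlib 3.10.9.

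The CDK inhibitors, the lists and the tests were chosen with earlier results of these data known. The genes closest in pattern to Cdkn2a are not reported here. Genes named from a list are the 2 with the smallest p over 6 arrays; Cdk4 and Cdk6 were added as the kinases that INK4 proteins bind. The replicate numbers were checked for pairing. Deviations from the group means correlated at 0.007, 0.029 and −0.148 for numbers 2, 3 and 4. The water mean includes water replicate 3, so this check says little about pairing of numbers 2 and 4. The labels call the cultures independent, and equal numbers were not treated as pairs. The alternatives were other background corrections and scalings, other filters, 1 probe per gene, the authors' table, another variance model, blocks for replicate number and slide row, and each array left out.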

Additional observations from a re-analysis of the deposited data

How the results depend on the processing

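No CDK inhibitor probe passed limma's threshold under any of the alternatives run, which gave 167 values over 6 arrays and 147 without water replicate 3. Of these values 13 and 8 had the opposite sign to the reported one. These counts hold repeats. Over 6 arrays the slide row block gave the same values as slide row 2 alone. Without water replicate 3 the replicate block gave those of leaving out captopril replicate 3, and the slide row block those of leaving out water replicate 2. The filters and the variance model leave the fold change of a probe as it was. Over 6 arrays the 6 probes that never changed sign were those of Cdkn1b, Cdkn1c, Cdkn2d, Cdkn1a probe A_55_P1986282, Cdkn2a probe A_55_P2008438 and Cdkn2b probe A_55_P1988183. The cause of the sign changes was not tested. With array median scaling, Cdkn1a probe A_51_P363947 stood at −0.0103 and Cdkn2b probe A_55_P1979526 at −0.12, and with quantile normalization Cdkn2a probe A_55_P2008437 at 0.0105. With the slide row as a block, or in slide row 2 alone, Cdkn2a probe A_55_P2008437 stood at 0.67, Cdkn2b probe A_55_P1979526 at −0.22 and Cdkn2c at 0.0581. Leaving out captopril replicate 2 gave 0.10 for that Cdkn2a probe and −0.31 for that Cdkn2b probe, and leaving out water replicate 3 gave 0.33 and −0.20. In the comparison without water replicate 3, the replicate block gave 0.43 for Cdkn2b probe A_55_P1979526 and 0.0451 for Cdkn2c, as did leaving out captopril replicate 3. There the slide row as a block, like leaving out water replicate 2, gave 0.0581 for Cdkn2c. Leaving out water replicate 4 gave 0.0280 for Cdkn1b and −0.0043 for Cdkn2a probe A_55_P2008437. With each array left out in turn, Cdkn2a probe A_55_P2008437 ranged between −0.3531 and 0.3349 and Cdkn2b probe A_55_P1979526 between −0.3109 and 0.8257 over 6 arrays. In the comparison of the other 5 arrays these ranges were −0.0043 to 0.6741 and −0.7061 to 0.4305, with −0.4960 to 0.0280 for Cdkn1b and −0.1490 to 0.0581 for Cdkn2c.

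The number of probes called over 6 arrays was 0, with 2867 at an unadjusted p under 0.05. It was 2 with the slide row as a block, 3 in slide row 2 alone (1 water array, with no spread of its own and assumed to vary like the captopril arrays), 0 with the replicate block (2116 at an unadjusted p under 0.05), and 0 to 91 with each array left out. Without water replicate 3 it was 91. It was 181 with normexp, 157 with the filter on all 6 arrays, 254 with a trended robust variance and 59 with the authors' table. The replicate block, which leaves 1 residual degree of freedom, gave every CDK inhibitor probe the same SE (0.3562). For them its test thus followed the fold change alone. The number called was 433 there. It was 3 with the slide row as a block, and 0 under array median scaling, quantile normalization and no filter, where 6383, 6341 and 6903 probes had an unadjusted p under 0.05. With 1 more array left out, which for a water array leaves a single one under the same assumption, it was 0 to 3, and 2905 to 7769 probes had an unadjusted p under 0.05. Array median scaling put the median of all probes over 6 arrays at −0.25, against 0.07 as reported, and the share of higher values at an unadjusted p under 0.05 to 16.7%, against 56.1% as reported and 34.9% with quantile normalization. With water replicate 3 left out, the corresponding shares were 38.9%, 69.5% and 56.3%.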

Other observations

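Probes of the same transcript did not move alike on water replicate 3, a point looked at after the values had been seen. Relative to the mean of water replicates 2 and 4, that array was 1.04 higher for Cdkn2a probe A_55_P2008437 and 0.68 lower for A_55_P2008438, both assigned to NM_009877. It was 0.85 higher for Cdkn2b probe A_55_P1988183 and 1.19 lower for A_55_P1979526, both assigned to NM_007670. Among the 2997 named accessions with 2 probes tested, 748 (25.0%) likewise had one probe more than 0.5 higher and the other more than 0.5 lower on that array. The gap between the fold changes of both Cdkn2b probes was 0.86 (log2) without water replicate 3, larger than in 96.2% of these accessions, whose median gap was 0.21. Over 6 arrays the Cdkn2b gap was 0.18, larger than in 23% of them and below their median of 0.44. For Cdkn2a the gap was 0.11 without that array, larger than in 27.5% of the accessions, and 0.465 over 6 arrays, larger than in 51.7%.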
